A study of Mus musculus with 4 samples.

Results

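The 10 genes described here encode parts of the desmosome and of the cornified junctions of the epidermis: Dsg1a, Dsg3, Dsc2, Dsc3, Perp, Jup, Pkp1, Pkp3, Dsp and Evpl, out of 55335 genes in the deposited tables. They were chosen by name, and 9 of the 10 had enough fragments to be tested, the exception being Dsc2. Desmosomes are adhesive junctions that tie the keratin filaments of neighbouring epithelial cells together. Desmogleins and desmocollins, which are cadherins, span the membrane, plakoglobin (Jup) and the plakophilins bind their tails, and desmoplakin (Dsp) links the plaque to keratin. They are abundant in keratinocytes and are not a feature of T cells.

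The RNA-seq libraries came from cells labelled CD4+ T cells of the skin of mice aged 8 to 12 weeks, all treated with imiquimod cream (5%) on the back for 5 days, at 15 or 62.5 mg a day. Imiquimod activates an innate receptor for RNA and is used to bring on a psoriasis-like skin inflammation. Both genotypes carried floxed Mettl3 alleles: 2 control libraries were Mettl3fl/fl, and 2 knockout libraries were Mettl3fl/fl;Cd4-Cre, where the Cd4 promoter drives Cre from the thymic stage of T cells on. Mettl3 encodes the enzyme that writes N6-methyladenosine on RNA, and the comparison asks which transcripts differ when it is deleted in T cells. Which cream amount each mouse received, how many mice gave each library and the sorting gate are not given in the sources used here.

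Control 2 stood apart from the other libraries before any result on the junction genes. The libraries held 3614418 to 4537006 counted fragments, and fragments of 11424 genes were seen in control 2 against 16273 to 20100 in the others. Mitochondrial genes held 7.98% of its fragments, against 2.29% to 4.39% in the others, and their part in the results was not tested. Across genes tested, Pearson's r of its log2(CPM + 1) lay between 0.586 and 0.602 with each other library, whereas those 3 reached 0.810 to 0.863 among themselves (genes are not independent replicates). Cd4 had 777 and 0 fragments in controls 1 and 2 and 420 and 9 in knockouts 1 and 2. T cell markers held 0.0168% to 0.109% of fragments, and macrophage and monocyte markers 1.04% to 2.74%, so counted fragments of the defining markers of the labelled cell type were few. The part of each marker gene that could be counted was not allowed for, so these shares do not compare numbers of cells. Mettl3 had 195, 49, 121 and 158 fragments in control 1, control 2, knockout 1 and knockout 2. None lay in an exon of a protein-coding transcript, so these counts check nothing about the deletion. Y-linked transcripts (4 genes) had 76 fragments in control 1 and 118 in knockout 2, against 1 and 0 in control 2 and knockout 1.

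As a group, the 10 genes made up 0.950% of all fragments in control 2 and far less elsewhere. Among controls, the share was 0.0333% for the first (exact binomial 95% interval 0.0316 to 0.0350) and 0.950% for the second (0.940 to 0.960). Among knockouts, it was 0.0580% for the first (0.0557 to 0.0603) and 0.0165% for the second (0.0153 to 0.0178). These intervals cover counting error only and treat each fragment as a separate molecule. No molecular identifiers are described, so amplified copies may have been counted, and every counting interval given here may be too narrow. In summed level, in TMM-scaled CPM (fragments per 1e+06 fragments counted, the unit of every level below), the group was at 329.8 and 9064 in controls 1 and 2 and 624.7 and 170.0 in knockouts 1 and 2. The lowest and the highest control thus lay on either side of knockout 1, and the groups overlapped. In such bulk libraries, fewer cells of a type and less RNA per cell cannot be told apart.

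**Figure D1:**
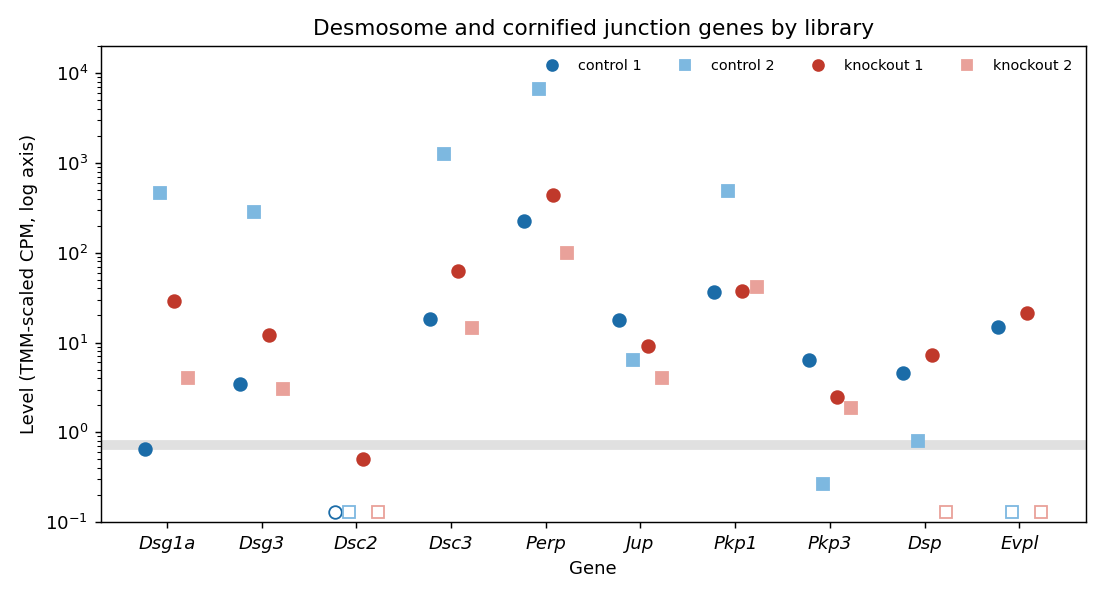
Level of each of the 10 genes (TMM-scaled CPM, log axis) in the 4 libraries, 1 point per library. Open points at the bottom mark 0 fragments, and the grey band is the level that 3 fragments would give in each library (0.655 to 0.792 CPM). Perp, Dsc3, Dsg1a, Dsg3 and Pkp1 were highest in control 2, where Evpl had no fragment.

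How much of each gene could be counted differed widely, and this sets what each level means. The authors counted fragments per exon entry and left out those that touched more than 1 entry. A base was therefore countable only where a single entry covered it. Fragments that crossed a splice junction were left out as well, so short exons could hold few fragments even where all bases were countable. All exonic bases of Perp, Dsg1a and Evpl were countable, each gene having 1 annotated transcript, against 61.1% in Dsg3, 49.5% in Jup, 40.03% in Dsc3, 39.3% in Pkp1, 19.6% in Pkp3, 19.3% in Dsp and 13.1% in Dsc2. In Pkp3, 91.7% of the 48 fragments lay in exons of retained-intron transcripts, and in Jup 98.8% of the 160 fragments lay in exons of other non-coding transcripts. Levels of those 2 genes hence say little of their protein-coding mRNA. In the other 8 genes, 98.1% to 100% of the fragments lay in exons of protein-coding transcripts.

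**Figure D2:**
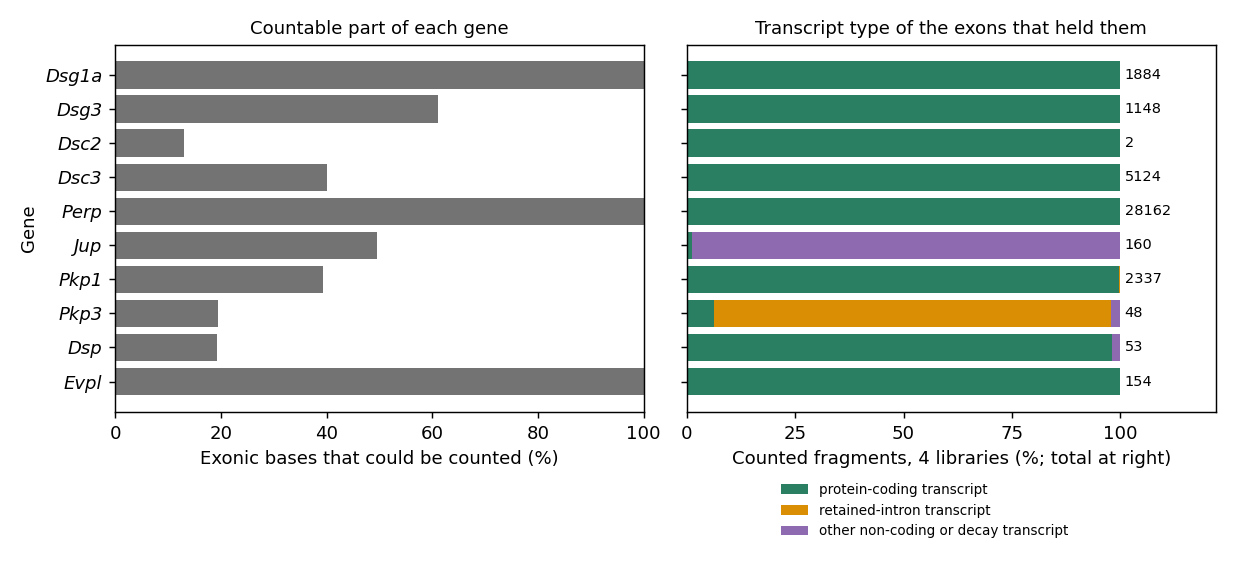
Left, the percentage of each gene's exonic bases covered by exactly 1 exon entry. Right, the percentage of each gene's counted fragments (4 libraries together, total beside each bar) by the type of transcript their exon belongs to. Jup and Pkp3 were counted almost wholly in exons of non-coding transcripts.

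Among the cadherins, Dsc3 had the most fragments. Dsc3, desmocollin 3 of the basal epidermis (ENSMUSG00000059898, GRCm38 chromosome 18, 19960930 to 20002351, minus strand), had 84 and 4727 fragments in controls 1 and 2 and 251 and 62 in knockouts 1 and 2, or 18.3, 1248, 62.6 and 14.7 CPM. Control 2 was 19.9-fold above knockout 1 (counting interval 17.5 to 22.7) and 68.0-fold above control 1 (54.8 to 85.5). The other 3 libraries lay close to each other by comparison, with knockout 1 the highest of them. Of all Dsc3 fragments, 99.7% lay in the last exon, which has no coding base.

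Dsg1a and Dsg3 are desmogleins, the antigens of the autoantibodies in pemphigus in people. Dsg1a (ENSMUSG00000069441, chromosome 18, 20310811 to 20343350, plus strand) had 3 and 1749 fragments in controls 1 and 2 and 115 and 17 in knockouts 1 and 2. That is 0.655, 461.7, 28.7 and 4.02 CPM, so that control 1, not a knockout, had the lowest level. Control 2 exceeded control 1 by 705.0-fold, with a counting interval of 240.8 to 3422 that reflects the 3 fragments. Dsg1a has near-identical copies, Dsg1b and Dsg1c, and its counts are uncertain because fragments that map to several places were not counted.

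Dsg3 (ENSMUSG00000056632, chromosome 18, 20510274 to 20547459, plus strand), the desmoglein of the lower epidermis, had 16, 1070, 49 and 13 fragments in control 1, control 2, knockout 1 and knockout 2. Its levels were 3.49, 282.4, 12.2 and 3.07 CPM, again with control 2 apart and knockout 1 next. Control 1 and knockout 2 were alike within counting error, at a ratio of knockout 2 to control 1 of 0.880 (0.389 to 1.95). Dsc2, a desmocollin that is not limited to stratified epithelia, had 2 fragments in knockout 1 and 0 in each other library, from 692 countable bases. No difference in Dsc2 was detectable at this depth.

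Perp had the highest level of the 10 genes in every library. Perp is a tetraspan membrane protein of the desmosome that p63 controls in the epidermis (ENSMUSG00000019851, chromosome 10, 18845020 to 18857073, plus strand). It had 1038 and 24926 fragments in controls 1 and 2 and 1773 and 425 in knockouts 1 and 2, or 226.6, 6580, 442.5 and 100.5 CPM. Per countable kilobase, Perp was at 116.1, 3371, 226.7 and 51.5 CPM, against 8.48, 576.9, 29.0 and 6.78 for Dsc3. Fragments lay mostly in last exons, so this scale allows for length only in part.

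All 3 exons of Perp held fragments in every library. The last, of which 224 of 1424 bases are coding, held 89.3% and 89.1% of the gene's fragments in controls 1 and 2, and 89.4% and 93.2% in knockouts 1 and 2. The spread of fragments over the gene was thus similar where Perp was high and where it was low. Exon 2 is the only exon that is coding throughout (GRCm38, chr10:18853537-18853677, plus strand, 141 bases, from the GENCODE M21 transcript). It held 63, 1220, 103 and 18 fragments in control 1, control 2, knockout 1 and knockout 2, and its sequence is shown as a wholly coding piece of the Perp message in which fragments were counted.
Perp exon 2: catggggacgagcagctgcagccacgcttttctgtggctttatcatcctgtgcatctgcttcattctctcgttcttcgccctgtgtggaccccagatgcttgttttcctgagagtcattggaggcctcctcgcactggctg

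Of the armadillo proteins of the plaque, Pkp1 followed another pattern from the cadherins outside control 2. Pkp1, plakophilin 1, which stabilises desmosomes of the upper epidermis (ENSMUSG00000026413, chromosome 1, 135871395 to 135919207, minus strand), had 169, 1839, 152 and 177 fragments in control 1, control 2, knockout 1 and knockout 2. Its levels were 36.9, 485.4, 37.9 and 41.8 CPM, so the 3 other libraries were within 1 narrow range and control 2 was 11.6-fold to 13.2-fold above each. Knockout 2, the lowest library for Perp, Dsc3 and Dsg3, was the highest of those 3 for Pkp1.

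Jup and Pkp3 did not share the high level of control 2. Jup, plakoglobin, which also serves adherens junctions (ENSMUSG00000001552, chromosome 11, 100368958 to 100397763, minus strand), had 82, 24, 37 and 17 fragments, or 17.9, 6.34, 9.23 and 4.02 CPM in control 1, control 2, knockout 1 and knockout 2. Pkp3, plakophilin 3 (ENSMUSG00000054065, chromosome 7, 141078218 to 141090510, plus strand), had 29, 1, 10 and 8 fragments in the same order. For both genes control 1 was the highest library. With so few coding fragments, the level of their mRNA in control 2 could not be read from these counts.

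The plakins, Dsp and Evpl, also lacked the high level of control 2, and both were seen in control 1 and knockout 1. Evpl encodes envoplakin, a plakin that is crosslinked into the cornified envelope (ENSMUSG00000034282, chromosome 11, 116220559 to 116238077, minus strand). It had 69 and 0 fragments in controls 1 and 2 and 85 and 0 in knockouts 1 and 2, or 15.1, 0, 21.2 and 0 CPM. A count of 0 allows up to 3 fragments, or 0.792 CPM in control 2 and 0.709 in knockout 2. The 2 libraries without Evpl were thus 1 control and 1 knockout. All of its exonic bases were countable, and its last exon (3643 bases, 3444 of them coding) held 95.5% of its fragments. Of 5993 tested genes with at least 50 fragments in both control 1 and knockout 1, 16.4% had none in control 2, 0.834% none in knockout 2 and 0.384% none in either, a limit chosen after Evpl's values were seen.

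Dsp, desmoplakin (ENSMUSG00000054889, chromosome 13, 38151294 to 38198577, plus strand), had 21 and 3 fragments in controls 1 and 2 and 29 and 0 in knockouts 1 and 2. Those libraries were at 4.58, 0.792, 7.24 and 0 CPM. The level of control 2 lay at the level of 3 fragments and that of knockout 2 at or under it. Desmoplakin has a long and a short splice form, which differ in the length of the rod domain. Of the gene's 53 fragments, 52 lay in exon 23 of the long form, in which 1797 of 2295 bases are countable, with 3882 bases of transcript between that exon and the 3′ end. The remaining fragment lay in an exon of a non-coding transcript. The counts of Dsp mRNA therefore come from the long form alone, and no base of the last exon was countable.

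The sequence across the point in exon 23 where the short form leaves off is shown to mark what was counted (GRCm38, chr13:38191799-38191948, plus strand, from the GENCODE M21 transcript). Lower case marks the part shared by both forms, in which no fragment could be counted, and capitals mark the start of the part of the long form alone. The capitals open with GT, the letters at which introns start.
Dsp exon 23: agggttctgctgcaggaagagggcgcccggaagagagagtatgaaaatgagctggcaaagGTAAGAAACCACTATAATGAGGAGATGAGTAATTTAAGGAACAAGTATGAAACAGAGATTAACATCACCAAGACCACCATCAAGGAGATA

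Between genotypes, no member passed the threshold, as did no gene at all (edgeR quasi-likelihood test, Benjamini-Hochberg adjusted p under 0.05, 0% of 12434 genes tested). Of the 9 tested members, 0 had an unadjusted p under 0.05, against 187 of all genes (1.5%). The log2 fold change, knockout over control, was -4.22 for Dsg3, -4.03 for Dsc3, -3.82 for Dsg1a, -3.65 for Perp and -2.71 for Pkp1, with standard errors from 1.26 to 2.49. It was -0.87 for Jup, -0.59 for Pkp3, 0.42 for Dsp and 0.49 for Evpl, with standard errors from 1.61 to 3.07. The adjusted p of each was 0.9997 (edgeR). The median was -2.71 over the 9 tested members and 0.20 over all genes tested.

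On the CPM scale, the difference between the genotype means of each tested member was smaller than the SD of the controls or of the knockouts. In size, the log2 fold change of the edgeR fit exceeded the SD of log2 CPM within groups for Perp (2.65), Dsg3 (3.21), Dsc3 (3.20) and Pkp1 (1.85). That of limma-voom, which fits the log2 levels themselves, was smaller than this SD, at -2.47, -2.14, -2.23 and -1.68 in that order. None of these genes passed either test. Controls averaged 3403 ± 4492 CPM of Perp and knockouts 271.5 ± 241.9 (mean ± SD, n = 2 for each genotype). Dsc3 was at 633.0 ± 869.3 and 38.7 ± 33.9 CPM, and Evpl at 7.53 ± 10.7 and 10.6 ± 15.0 CPM. Pkp1 was at 261.2 ± 317.2 and 39.9 ± 2.76 CPM. No tested member had both knockouts below or above both controls, whereas 11.2% of all genes tested had both below and 19.5% both above.

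The negative values of the cadherins, Perp and Pkp1 rested on control 2. Without control 2, the log2 fold change was 0.25 for Perp, 1.07 for Dsc3, 1.12 for Dsg3, 0.10 for Pkp1 and 4.58 for Dsg1a, the last against the 3 fragments of control 1. Jup and Pkp3 were then at -1.44 and -1.52, Dsp at -0.35 and Evpl at -0.51. The median of the 9 members was then 0.10, against 0.050 over all genes. Without control 1, Jup was at 0.13 and Pkp3 at 2.98, and the values of Perp, Dsc3, Dsg3, Dsg1a and Pkp1 lay between -5.13 and -3.54, with adjusted p from 0.054 to 0.067 (edgeR), and 0% of genes passed. The median of all genes was then 1.72. In that setting the single control was control 2.

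**Figure D3:**
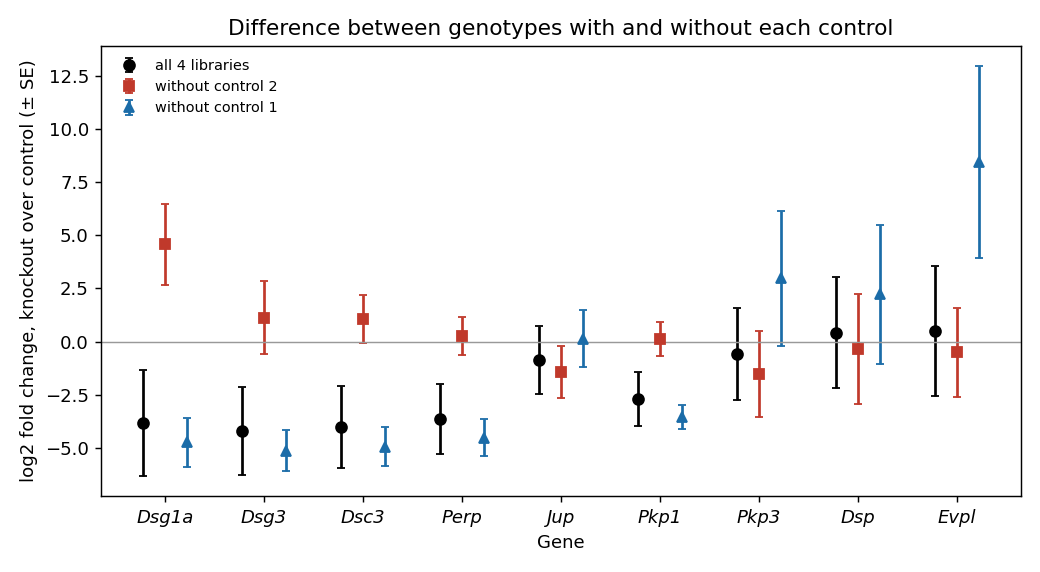
Fitted log2 fold change, knockout over control, of the 9 tested genes with all 4 libraries, without control 2 and without control 1. Bars are standard errors of the fit. Values of the cadherins, Perp and Pkp1 are below 0 with control 2 and above 0 without it.

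Calls of members depended on the low-count filter. Without a low-count filter, edgeR gave adjusted p values of 0.00080 for Perp and 0.030 for Dsc3, so that 2 of 10 members passed, against 0.11% of 24651 genes (0.0771% lower in knockouts). DESeq2 passed 0.282% of 8880 genes with an adjusted p (0.225% lower in knockouts) and limma-voom 0% of 12434. No member was among them, although Dsp, Pkp3 and Dsc2 had no adjusted p from DESeq2. No member passed without knockout 1, where 0.0136% of genes did, or without knockout 2, where 0.027% did. The adjusted p of Perp lay between 0.00080 and 1 over all settings, and it was 0.9999 without control 2 (edgeR with a low-count filter).

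Within pairs of libraries alike in Y-linked transcripts, the members did not keep 1 direction. Between knockout 1 and control 2, which lacked them, the ratio of knockout to control was 0.0673 for Perp (counting interval 0.0641 to 0.0706), 0.0502 for Dsc3, 0.0433 for Dsg3, 0.0622 for Dsg1a and 0.0782 for Pkp1. In the same pair it was 1.46 for Jup (0.849 to 2.55), 9.14 for Dsp (2.83 to 46.9) and 9.46 for Pkp3 (1.35 to 410.4), and Evpl had 85 fragments against 0. Between knockout 2 and control 1, which held them, it was 0.443 for Perp (0.395 to 0.497), 0.799 for Dsc3 (0.566 to 1.12) and 0.880 for Dsg3. It was 1.13 for Pkp1 (0.913 to 1.41) and 6.14 for Dsg1a (1.78 to 32.7). For Jup it was 0.225 (0.125 to 0.382) and for Pkp3 0.299 (0.118 to 0.670), while Dsp had 0 fragments against 21 and Evpl 0 against 69. Each pair is 1 library against 1, with no replicate check. Control 1 also held 1858 fragments of Xist, against 20 in knockout 2, 8909 in control 2 and 5442 in knockout 1. The part of sex in these values was not tested.

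Keratinocyte markers were highest in the same library as Perp, Dsc3, Dsg1a, Dsg3 and Pkp1. Of 15 such markers that are not among the 10 genes, 14 were tested, and all 14 were highest in control 2, as were 5 of the 9 tested junction genes and 27% of all genes tested. Their summed level was 2485 and 27465 CPM in controls 1 and 2 and 3172 and 1550 in knockouts 1 and 2. Krt14, a keratin of the basal layer, had 1860, 19489, 3272 and 1594 fragments in that order, and Epcam had 0 in all 4. T cell markers were at 1077, 331.3, 333.5 and 173.0 CPM, with 5 of 15 at 0 in control 2, Cd4 among them. The part of keratinocyte RNA in the differences was not tested.

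Set against those markers, the 10 genes in sum were still most abundant in control 2, though by a smaller factor and not for each gene. For each 100 fragments of keratinocyte markers, the 10 genes had 13.3 and 33.0 fragments in controls 1 and 2 and 19.7 and 10.97 in knockouts 1 and 2. Perp had 9.12, 24.0, 13.9 and 6.48 on this scale, and Dsc3 had 0.738, 4.54, 1.97 and 0.946. Pkp1 had 1.48, 1.77, 1.20 and 2.699, so that knockout 2 was the highest library for it. Evpl, at 0.606 in control 1 and 0.669 in knockout 1, was at 0 in the others. Jup had 0.720, 0.0231, 0.291 and 0.259, and Pkp3 0.255, 0.00096, 0.0787 and 0.122, both lowest in control 2. Dsp had 0.184, 0.00288, 0.228 and 0 in the same order.

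**Figure D4:**
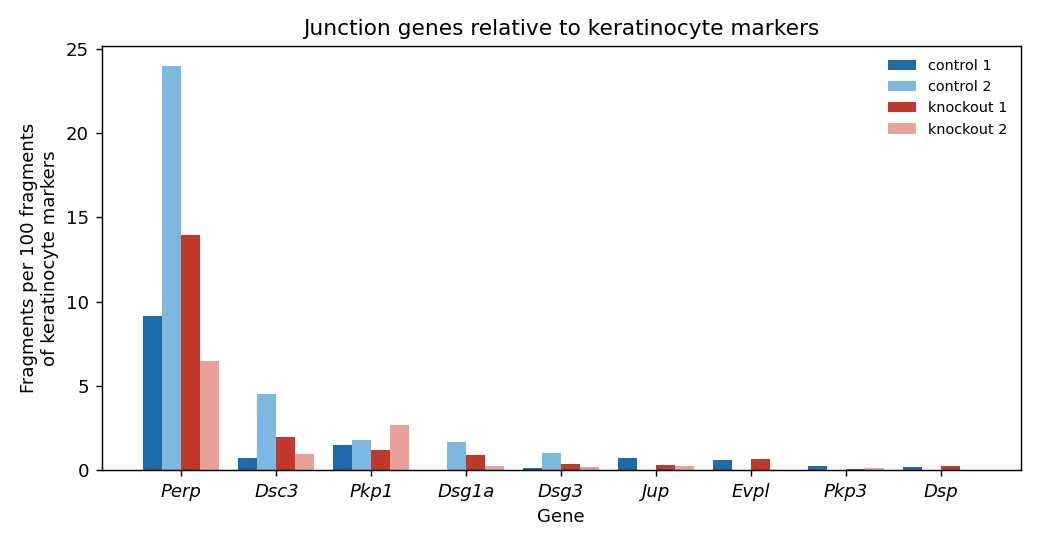
Fragments of each gene per 100 fragments of 15 keratinocyte markers, 1 bar per library (Dsc2, with 2 fragments in all, is left out). Perp, Dsc3, Dsg1a and Dsg3 are highest in control 2 also on this scale, whereas Pkp1 is highest in knockout 2.

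Other desmosome genes were mostly too sparse to test. Of 8, 3 were tested and 0 passed in either direction (0% of all genes), with a median log2 fold change of -3.73, or 0.92 without control 2. Ppl, periplakin, the partner of envoplakin, had 113, 410, 147 and 242 fragments in control 1, control 2, knockout 1 and knockout 2, and so was seen in the 2 libraries in which Evpl was at 0. Dsg1b, a near-identical copy of Dsg1a, had 3, 374, 15 and 0, and these counts are uncertain for the same reason as those of Dsg1a. Dsg2, the desmoglein of simple epithelia, had 56, 31, 5 and 1. Without control 2 the log2 fold change of Dsg2 stayed negative, at -4.00 after -3.73, whereas Ppl was at 0.92 and Dsg1b at 1.47.

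The cornified envelope and corneodesmosome list had 10 of 13 genes tested, and 0 passed. All 10 log2 fold changes were negative, with a median of -3.39, or -0.68 without control 2 over 11 tested. Both knockouts lay below both controls for 6 of the 10, where 11.2% of all genes did so. Krt1, a keratin of the differentiating layers, had 434, 8676, 257 and 231 fragments in control 1, control 2, knockout 1 and knockout 2. Sprr1a and Sprr1b, envelope precursors, had 769, 3102, 197 and 185, and 797, 5388, 447 and 157. All 3 were higher in control 1 than in either knockout, as among the 9 tested junction genes only Jup and Pkp3 were.

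Among the genes that cut desmosomes or restrain that cutting, 4 of the 6 found in the tables were tested and 0 passed, with a median of -2.53, or -0.011 without control 2. Klk7, a protease that digests corneodesmosomes, had 101, 3303, 105 and 31 fragments, and Spink5, its inhibitor, had 22, 523, 31 and 0, in the order control 1, control 2, knockout 1, knockout 2. St14, the protease matriptase, had 215, 623, 190 and 289.

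Neighbouring junction types differed less between libraries in sum than the 10 genes did, of whose fragments Perp held 59.1% to 72.6%. In control 1, control 2, knockout 1 and knockout 2, tight junction genes summed to 312.2, 1260, 624.2 and 213.2 CPM. Hemidesmosome genes summed to 126.0, 517.9, 120.6 and 65.7, and other desmosome genes to 40.2, 280.6, 42.7 and 57.4, in the same order. Adherens junction genes summed to 492.9, 873.2, 539.9 and 374.7 CPM in control 1, control 2, knockout 1 and knockout 2, with 3 of 6 tested genes on each side of 0 and a median log2 fold change of -0.13, or 0.33 without control 2. Ctnna1, alpha-catenin, had 1305, 2055, 1127 and 1236 fragments, Cdh1, E-cadherin, had 536, 944, 711 and 130, and Nectin1 had 340, 158, 120 and 91. Tight junction genes had a median of -2.07 over 5 tested, or 0.43 without control 2, where Cldn4 had 59, 2202, 219 and 6 fragments, Cldn1 88, 780, 165 and 53, and F11r 1179, 1357, 2067 and 767. Hemidesmosome genes had a median of -0.79 over 6, or -0.53 without control 2, with Dst, a plakin, at 141, 1145, 105 and 45, Itga6 at 272, 442, 244 and 147, and Plec at 121, 60, 81 and 24. Of the Itga6 fragments, 0% lay in exons of protein-coding transcripts, so its counts say little of its protein-coding mRNA. None of the adherens junction, tight junction and hemidesmosome lists had a gene past the threshold.

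The keratins to which desmosomes attach, and epithelial transcription factors, also had their highest sums in control 2. Of 9 tested keratins, 8 were highest there, and the sum was 1652, 17112, 2268 and 1045 CPM in control 1, control 2, knockout 1 and knockout 2. Most of these keratins, Krt5, Krt14 and Krt16 among them, are also among the keratinocyte markers above. So are Krt1 of the cornified envelope list and Cdh1 of the adherens junction list, and the lists are not separate observations. Krt5 had 1600, 19916, 2170 and 1023 fragments, and Krt16, a keratin of inflamed epidermis, 1078, 9970, 1244 and 921. Of 9 tested transcription factors, 7 were highest in control 2, among them Klf5 (290, 2014, 109 and 199 fragments). Klf4, which myeloid cells also express, was lowest there, at 5170, 2415, 2836 and 4161. The keratins had a median log2 fold change of -2.22 and the factors one of -2.98, or 0.049 and -0.42 without control 2, and 0 genes of either list passed.

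**Figure D5:**
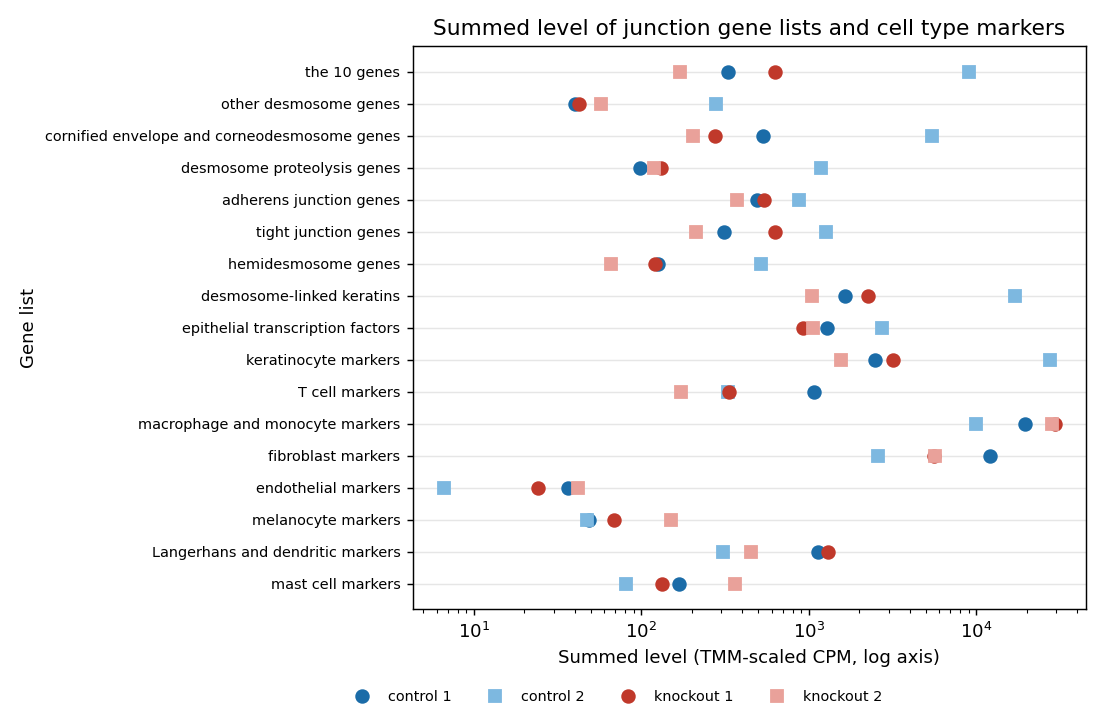
Summed level (TMM-scaled CPM, log axis) of the 10 genes, of 8 further junction and epidermal gene lists and of 8 lists of cell type markers, 1 point per library. Some genes, such as Krt5 and Cdh1, are in more than 1 list. Control 2 has the highest sum of all 9 epidermal lists and of keratinocyte markers. It has the lowest sum of macrophage, fibroblast, endothelial, Langerhans and dendritic, and mast cell markers. For melanocyte markers, control 2 and control 1 are nearly equal, at 47.5 and 48.7 CPM.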

How the data were processed

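The deposited values are raw fragment counts per exon entry for 4 libraries. Per the file headers, featureCounts 2.0.1 ran unstranded on GRCm38 alignments against GENCODE M23, keeping pairs of which each mate mapped and leaving out chimeras. Per the submitters' processing notes, Trim Galore 0.6.7 and STAR 2.7.9a came before. Of 841606 exon entries, 545076 share their coordinates with another, and these held 0 fragments. Counts were summed per gene, with symbols for 55154 of 55335 identifiers. Transcript types came from GENCODE M21, which holds 99.7% of the entries.

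Knockout and control were compared with edgeR 4.0.16 (R 4.3.3): filterByExpr at a minimum count of 10, TMM, quasi-likelihood test, two-sided, Benjamini-Hochberg over all genes tested, threshold 0.05. The scripts were tested on simulated data. Counting intervals are exact (binomial, 95%), and a count of 0 allows 3 fragments. Libraries are numbered only to name them. Every pair of them differed by more than sampling noise (chi-square over its degrees of freedom from 40.1 to 164.1). The labels do not say whether they came from separate mice. Y-linked transcripts had 76 and 1 fragments in controls 1 and 2 and 0 and 118 in knockouts 1 and 2. Xist had 1858 and 8909, and 5442 and 20, in that order, so at least the knockouts were not repeats of 1 RNA sample. A p-value reflects library-to-library spread, part of which may be technical.

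The members, lists and tests were chosen with earlier results of these data known. Named are all members and the 3 tested genes with the highest mean level of each further list, except 1 gene that is not reported here. Alternatives used DESeq2 1.42.0, limma 3.58.1, other scalings, no filter, fewer exons and each library left out. A covariate for Y-linked transcripts was added after seeing the data.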

Additional observations from a re-analysis of the deposited data

How the results depend on the processing

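Over 12 alternatives (the Y-linked covariate chosen after seeing the data), 85 values of single members with an adjusted p kept their direction and side of the threshold, 2 passed it and 16 turned sign. The count of genes past the threshold, 0 with all libraries, was 27 without a low-count filter and 25 by DESeq2, and lay between 0 and 4 with 1 library left out (2 without knockout 1, 4 without knockout 2). Members past it were 2 without a filter and 0 in each other setting. The median log2 fold change of the members turned from -2.71 to 0.10 without control 2, and lay between -5.33 and 0.10 with 1 library left out. Without control 2, Perp turned to 0.25, Dsg1a to 4.58, Dsg3 to 1.12, Dsc3 to 1.07, Pkp1 to 0.10, Dsp to -0.35 and Evpl to -0.51. Without control 1, Pkp3 turned to 2.98 and Jup to 0.13, and without knockout 1, Dsp turned to -6.54 and Evpl to -8.03, both against a lone knockout with 0 fragments. By limma-voom, Dsp turned to -1.23, Pkp3 to 0.45 and Evpl to -0.00022. With the Y-linked covariate, Dsp turned to -1.23 and Pkp3 to 0.57. With 1 library left out, values lay between -4.98 and 0.25 for Perp, -5.33 and 1.07 for Dsc3, -5.73 and 4.58 for Dsg1a, -5.42 and 1.12 for Dsg3, -3.54 and 0.10 for Pkp1, -1.57 and 0.13 for Jup, -1.52 and 2.98 for Pkp3, -6.54 and 2.22 for Dsp, and -8.03 and 8.44 for Evpl. The cause of these changes was not tested. A lone library was assumed to vary like the other group. Summed levels moved by less than 1 SD under each scaling. Dsp and Pkp3 had no adjusted p from DESeq2, Dsc2 could be tested in 1 setting, Pkp3 had too few fragments without retained-intron exons, and Jup too few in exons of protein-coding transcripts. No paired analysis was possible because the labels number no replicates.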
